A study of Mus musculus with 4 samples.

Results

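Genes of eosinophils, mast cells and the type 2 immune response were followed in mouse lung on 4 single-colour Affymetrix arrays, 2 of wild type lungs and 2 of lungs labelled IKKa floxed. All 4 samples came from mice of the B6/J strain that had received, through the trachea, an adenovirus encoding Cre recombinase, and the lungs were taken 4 months later. Cre excises DNA flanked by loxP sites, and IKKα is a kinase that acts upstream of NF-κB transcription factors. The labels name the floxed gene but give no age, no sex, no promoter for Cre and no lung cell type in which it acted, and they leave it unsaid if the arrays come from separate animals. p-values therefore measure the spread between these arrays, which may be technical. The comparison holds no lung without the virus. The group of genes was fixed by name as Prg2, Ear1, Ear2, Retnla, Chil3, Arg1, Cpa3, Ms4a2, Fcer1a and Gata3, and every probe set annotated to exactly 1 of these symbols was taken. Of the 10 genes, 8 had such a probe set, which gave 9 probe sets of 45101 on the array, as Ms4a2 had 2. Ear1 and Ear2, the eosinophil-associated ribonucleases, had none and are not analysed here.

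Type 2 immunity is the arm of the immune system that responds to parasites, allergens and tissue injury. Its cytokines, interleukins 4, 5 and 13, are made by T helper 2 cells and innate lymphoid cells under the transcription factor GATA3. Interleukin 5 sustains eosinophils, whose granules hold major basic protein (Prg2), peroxidase (Epx) and ribonucleases. Interleukins 4 and 13 act through STAT6 on macrophages, which then make arginase 1 (Arg1), the resistin-like molecule Retnla and the chitinase-like lectin Chil3. Mast cells carry the high-affinity IgE receptor, with its alpha chain Fcer1a and beta chain Ms4a2, and store carboxypeptidase A3 (Cpa3) in their granules. In mouse lung, alveolar macrophages are a known source of Chil3 without allergen or infection.

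Intensities are the deposited linear values, which had been scaled so that the mean of every array, with 2% of probe sets trimmed at each end, was 150.001. Array medians lay between 32.0 and 34.2. The arrays were compared with limma on log2(intensity + 16), and a gene was called at a Benjamini-Hochberg adjusted p under 0.05. Adjustment ran over 12735 genes whose mean intensity reached 20.97, the 30th percentile. In all, 225 genes were called, 128 higher and 97 lower in the floxed lungs, with a median log2 difference of 4.73e-05 over all of those tested. As a background for the gene lists, 14.3% of all genes tested (1816) had an unadjusted p under 0.05 and 6369 of the 12735 lay above 0. Leaving out wild type replicate 2 brought the calls to 145. Scgb1a1, the club cell secretoglobin that defines airway tissue, stood at 14552 and 14417 in wild type and at 19539 and 16203 in floxed lungs.

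The 2 groups also differed in features that bear on every result here. Xist, which is transcribed from the inactive X chromosome of females, was at 31.8 and 22.9 in wild type and at 4246 and 4629 in floxed lungs, and the Y-linked genes were low on the floxed arrays, so genotype and the sex pattern of the arrays cannot be told apart. RNA integrity, read as the 3′ to 5′ ratio of the Gapdh control probe sets, gave 1.18 and 1.10 for the wild type arrays and 1.44 and 1.68 for the floxed arrays. For the actin control probe sets it came to 2.65 and 2.46 on the wild type and 2.67 and 2.77 on the floxed arrays. In the floxed lungs 8 of 10 tested cardiac muscle genes fell, with summed intensities of 4847 to 7130 in wild type and 509 to 649 in floxed lungs. Of the conducting airway genes 6 of 10 fell, with log2 differences from -4.81 for Bpifa1 to -1.98 for Tff2. The sums over all 10 were 40150.3 to 41870.0 and 34915 to 42303. These sums came mostly from Scgb1a1, Scgb3a2 and Cyp2f2, which were not called. Of the adipose genes 3 of 7 fell, with sums of 1035 to 1330 and 368 to 420.0. Of the T cell genes 3 of 7 rose, with sums of 324 to 354 and 616 to 832. With no filter the counts called were 6 for cardiac muscle, 3 for conducting airway, 1 for adipose and 0 for T cell genes. Of the genes counted with the filter, 3, 3, 2 and 1 in the same order reached it through the arrays of 1 group only. The part of these differences in the results below was not tested. In whole lung, fewer cells of a type and less RNA per cell cannot be told apart.

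Of the 8 genes with a probe set, 4 reached the filter and were tested, namely Prg2, Chil3, Retnla and Gata3, and 4 lay below it, namely Arg1, Cpa3, Ms4a2 and Fcer1a. Prg2 rose, and it was the 1 gene called among the 4, where 1.01% of all genes tested were called higher, 0.762% lower and 1.77% in either direction. The arrays of the 2 groups did not overlap for 3 of the 4 tested genes, Prg2, Chil3 and Gata3, against 45.8% of all genes tested, so the absence of overlap by itself was common in this comparison. Counting all 8 genes, the groups did not overlap for 4, against 42.6% of all genes with no filter.

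**Figure D1:**
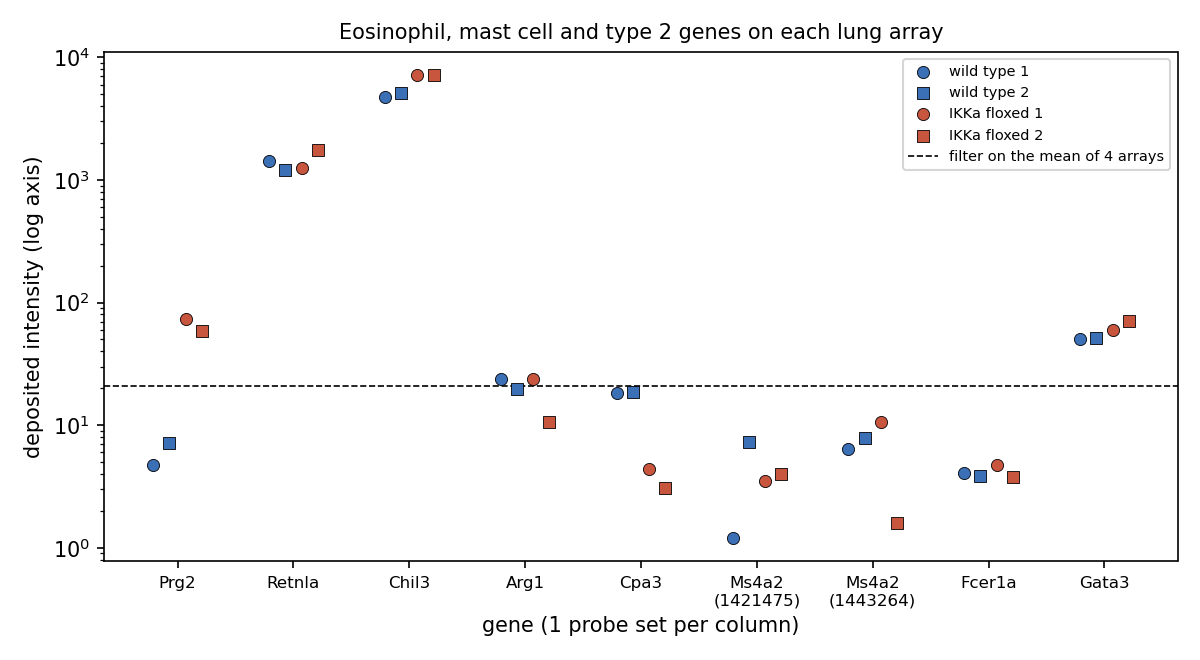
Deposited intensity (log axis) of the 9 probe sets on each of the 4 arrays, with 1 column per probe set; blue marks wild type and red IKKa floxed lungs, and the dashed line is the filter at a mean of 20.97. Prg2 goes from 4.73 and 7.15 to 73.4 and 58.7, Chil3 lies at 4742 or above on all arrays, and Ms4a2 and Fcer1a lie below the line on every array. Levels of different probe sets are not compared.

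Prg2, the eosinophil granule major basic protein, had an intensity of 4.73 and 7.15 on the wild type arrays and of 73.4 and 58.7 on the floxed arrays. Both floxed values lay above both wild type values, and the groups did not overlap. The group means were 5.94 ± 1.71 and 66.0 ± 10.4 (SD, n = 2 each). On the scale of the test this was a log2 difference of 1.90 ± 0.14 SE (95% interval 1.56 to 2.24), or 3.73-fold, with a limma adjusted p of 0.00251. Prg2 ranked as number 19 from the top among the 12735 genes tested, ordered by this difference. Its size depended on the constant added before the logarithm, with a log2 difference of 3.29 for a pseudocount of 1 and of 0.89 for a pseudocount of 64. Prg2 reached the filter only through the floxed arrays, so that a gene at its wild type level could not have been tested without a rise. With no filter it was also called (adjusted p = 0.0287), where 0.379% of all genes were.

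The other eosinophil genes were not called. Of 11 genes fixed for this cell type, 7 were on the array and 5 of these lay below the filter. Epx, the eosinophil peroxidase, was at 4.02 and 1.42 in wild type and at 6.38 and 4.15 in floxed lungs. Prg3, the paralogue of major basic protein, stayed between 1.27 and 1.96 on all 4 arrays. Ccr3, the eotaxin receptor through which eosinophils are recruited, was at 10.4 and 7.40 in wild type and at 5.84 and 1.51 in floxed lungs. Il5ra, the receptor chain for interleukin 5, was at 21.8 and 12.2 against 1.42 and 12.8. None of these 4 defining markers, all below the filter, exceeded 12.8 on a floxed array, and Il5ra reached 21.8 on a wild type array. For Epx both floxed values lay above both wild type values, and for Ccr3 both lay below. Siglecf, a surface lectin of eosinophils that alveolar macrophages also carry, was the other tested gene of the list. It was at 118 and 127 in wild type and at 138 and 142 in floxed lungs (log2 difference 0.18, limma adjusted p = 0.567). Alox15, an arachidonate lipoxygenase, was at 5.20 and 10.2 against 12.05 and 1.74.

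As a reference for low intensities, probe sets of transcripts that the sex pattern leaves out were read on the same arrays. The 3 probe sets of Xist gave 0.743 to 31.8 on the wild type arrays. The 9 probe sets of the Y-linked genes Eif2s3y, Kdm5d and Uty gave 0.0498 to 12.5 on the floxed arrays, with a median of 3.06. Probe sets differ in their own background, so this range sets no limit for any other probe set. The wild type values of Prg2 and the values of Epx, Prg3 and Ccr3 on all arrays were within it, and the floxed values of Prg2 were above it.

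**Figure D2:**
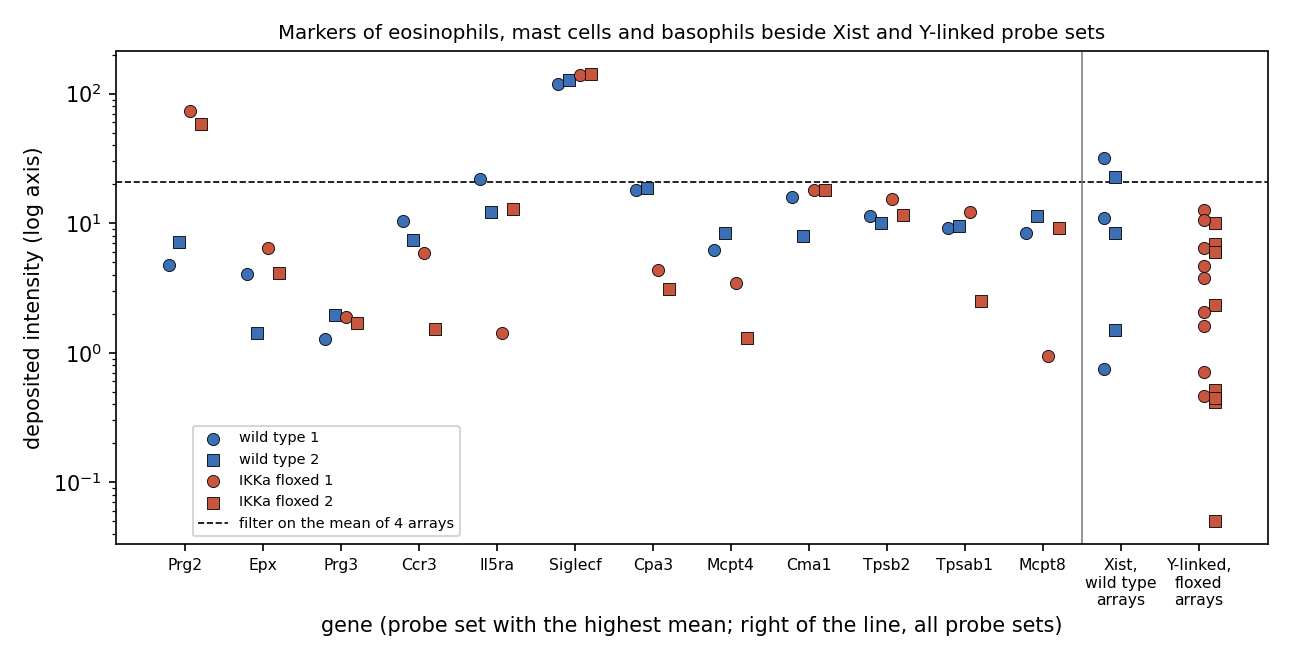
Deposited intensity (log axis) on each array for 6 eosinophil genes, 5 mast cell genes and the basophil protease Mcpt8, and, right of the line, for Xist probe sets on wild type arrays (0.743 to 31.8) and Y-linked probe sets on floxed arrays (0.0498 to 12.5). Prg2 separates the groups, and Siglecf lies between 118 and 142. The other genes lie within the range of the Xist and Y-linked probe sets, which above 12.5 rests on 1 Xist probe set. The dashed line is the filter at a mean of 20.97.

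Chil3, Retnla and Arg1 are the macrophage genes of the group. For Chil3 and Retnla the 250 bases before the gene start are shown because STAT6 acts on both genes in textbook accounts of alternative activation. They come from RefSeq (GRCm38.p6), where 8 of the 10 genes had an entry, and run 5′ to 3′ on the strand of the gene. Capitals mark matches, on either strand, to the STAT motif TTCNNNGAA, the STAT6 form TTCNNNNGAA and the GATA motif GATAA. The Chil3 window is chr3:106167565-106167814, minus strand, and that of Retnla is chr16:48842359-48842608, plus strand.
Chil3: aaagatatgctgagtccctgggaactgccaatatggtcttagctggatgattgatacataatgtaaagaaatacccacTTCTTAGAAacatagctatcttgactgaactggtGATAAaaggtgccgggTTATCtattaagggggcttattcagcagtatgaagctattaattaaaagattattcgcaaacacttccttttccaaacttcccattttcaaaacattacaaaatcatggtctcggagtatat
Retnla: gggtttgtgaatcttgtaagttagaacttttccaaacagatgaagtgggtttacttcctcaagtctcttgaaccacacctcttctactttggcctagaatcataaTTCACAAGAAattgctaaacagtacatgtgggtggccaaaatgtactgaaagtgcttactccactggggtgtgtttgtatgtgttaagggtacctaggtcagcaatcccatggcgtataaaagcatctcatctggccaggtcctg
Retnla held 1 match to TTCNNNNGAA, TTCACAAGAA, at 145 to 136 bases before the start. Chil3 held 1 match to TTCNNNGAA, TTCTTAGAA, at 172 to 164 bases before the start, and 2 to GATAA, and no matches overlapped. Among 32851 RefSeq promoter windows of the same length, 5.85% held TTCNNNNGAA, 7.02% TTCNNNGAA and 22.6% GATAA. A match is a description of the letters and says nothing about binding in these lungs.

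Chil3, also known as Ym1, was at 4742 and 5076 on the wild type arrays and at 7224 and 7193 on the floxed arrays. The floxed arrays were nearly equal to each other and both lay above the wild type arrays. The means were 4909 ± 236 and 7209 ± 22.4 (SD, n = 2 each), and the log2 difference was 0.55 ± 0.12 SE (95% interval 0.27 to 0.84, 1.47-fold). It did not pass the threshold (limma adjusted p = 0.0899), and it stood at rank 343 of the genes tested. Chil3 passed under 3 alternatives, a pseudocount of 64 (adjusted p = 0.0153), a filter at the 50th percentile (0.0468) and an intensity trend with a robust prior (0.00544). After quantile normalization its log2 difference was 0.37. Its call therefore depended on the setting, while its direction was the same in all 13 alternatives.

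Retnla, also known as RELMα or FIZZ1, was at 1429.7 and 1211 in wild type and at 1242 and 1739 in floxed lungs. The groups overlapped, with both wild type values between or below the floxed ones. The means were 1320.2 ± 155 and 1491 ± 352 (SD, n = 2 each), with a log2 difference of 0.16 ± 0.19 SE (limma adjusted p = 0.759). The 95% interval ran from -0.29 to 0.60, so that a moderate change either way is within it. The direction itself rested on the arrays, from 0.40 without floxed replicate 1 to -0.08 without floxed replicate 2. Adipose tissue also expresses Retnla, and the part of the adipose gene difference given above was not tested.

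Arg1, the arginase that turns arginine into ornithine and urea, lay below the filter with 23.9 and 19.7 in wild type against 23.7 and 10.6 in floxed lungs. The groups overlapped, and floxed replicate 2 was the lowest array. With no filter the log2 difference was -0.21 ± 0.22 SE (95% interval -0.76 to 0.33, limma adjusted p = 0.770). Without that array it was 0.07. The mitochondrial isoform Arg2 was at 104 and 90.6 against 147 and 155 (log2 difference 0.56, adjusted p = 0.101). Its other probe set overlapped between groups, at 55.7 and 48.0 against 46.4 and 91.2 (0.27 in the limma fit over probe sets, adjusted p = 0.723). Neither arginase passed the test.

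The list of alternatively activated macrophage genes, which includes Chil3, Retnla and Arg1, held 11 tested genes besides 3 below the filter. None rose and 1 fell, with a median log2 difference of 0.26, and 4 had an unadjusted p under 0.05, where 14.3% of all genes did. The gene that fell was Cd163, the haemoglobin scavenger receptor, from 115 and 108 to 58.2 and 37.7 (log2 difference -1.01 ± 0.17 SE, limma adjusted p = 0.0476). Its call was lost without wild type replicate 1, wild type replicate 2 or floxed replicate 2 (adjusted p = 0.0951, 0.0858 and 0.0597), and with no filter (0.156). Mrc1, the mannose receptor often used to mark this state, stood at -0.07. Of the 11 tested genes 8 lay above 0, where 6369 of all 12735 genes tested did. Ccl22 and Ccl8 were higher on both floxed arrays without a call (log2 differences 0.70 and 0.94, limma adjusted p = 0.118 and 0.260). Of 16 alveolar macrophage genes, all above the filter, 1 rose and 1 fell (median 0.19), with summed intensities of 11056 to 11607 in wild type and 12252 to 12335 in floxed lungs. The one that rose was the scavenger receptor Marco, from 60.2 and 73.1 to 275 and 267 (log2 difference 1.80, adjusted p = 0.00251). The one that fell was Fabp4, which binds fatty acids in macrophages and fat cells (-1.13, adjusted p = 0.0120, but 0.0651 with no filter).

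Genes of the Ear, Chil, Retn and Arg families were also read as a list, which includes the members Chil3, Retnla and Arg1. Of 10 on the array, 7 were tested, Chil3 and Retnla among them. None rose and 1 fell (median 0.21), and 3, Chil3 included, had an unadjusted p under 0.05 by limma. Retn, the adipocyte hormone resistin, was the gene that fell, from 48.0 and 38.0 to 16.4 and 14.2 (log2 difference -0.91, limma adjusted p = 0.0285). It reached the filter only through the wild type arrays, and the call was lost with no filter (adjusted p = 0.112). It was also lost without wild type replicate 1 (adjusted p = 0.102), floxed replicate 1 (0.0544) or floxed replicate 2 (0.0651). Ear3, a ribonuclease of the same family as Ear1 and Ear2, was at 176 and 184 against 214 and 206 (0.21, adjusted p = 0.497). Its probe set is of the Affymetrix class that can bind related sequences, so the family member it reads is uncertain. Chil1 and the acidic chitinase Chia1 stood at 0.13 and 0.28, and Chil4 and Retnlb lay below the filter.

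The 3 mast cell genes of the group lay below the filter on the mean of all arrays. Cpa3 was at 18.2 and 18.7 in wild type and at 4.38 and 3.08 in floxed lungs. The groups did not overlap, and each pair of arrays was close, with means of 18.5 ± 0.403 and 3.73 ± 0.922 (SD, n = 2 each). With no filter its log2 difference was -0.80 ± 0.12 SE (95% interval -1.11 to -0.50), and it did not pass the threshold (limma unadjusted p = 8.48e-04, adjusted p = 0.105). The difference lay between -0.85 and -0.76 whichever array was left out. Its values on all arrays were within the range that Xist and Y-linked probe sets gave. For the wild type values this rested on 1 Xist probe set, at 31.8 and 22.9. The other Xist and Y-linked probe sets gave at most 12.5. The 250 bases before Cpa3, at chr3:20242182-20242431, minus strand (RefSeq, GRCm38.p6), are shown because this was the member with the largest difference toward wild type, and capitals mark its 1 match to GATAA, at 45 to 41 bases before the start.
Cpa3: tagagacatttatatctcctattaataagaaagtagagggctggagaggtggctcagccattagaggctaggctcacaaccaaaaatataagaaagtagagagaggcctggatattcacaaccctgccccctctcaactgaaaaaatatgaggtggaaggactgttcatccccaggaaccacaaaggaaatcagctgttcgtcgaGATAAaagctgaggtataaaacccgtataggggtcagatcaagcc
GATA factors are known regulators of mast cell genes, and 22.6% of all promoter windows hold the same letters.

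Fcer1a, the IgE-binding alpha chain, was at 4.05 and 3.85 in wild type and at 4.70 and 3.79 in floxed lungs. The groups overlapped, with a log2 difference of 0.02 with no filter (95% interval -0.28 to 0.32, limma adjusted p = 0.968). Ms4a2, the beta chain, had 1 probe set at 6.42 and 7.81 against 10.5 and 1.59. Its other probe set was at 1.20 and 7.36 against 3.53 and 3.97. Both overlapped between groups, and arrays of 1 group differed by as much as arrays of different groups. With no filter the 2 probe sets stood at -0.10 and -0.02 (limma adjusted p = 0.917 and 0.982, adjusted over all probe sets, of which 0.146% were called).

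The mast cell list held 13 genes, Cpa3, Ms4a2 and Fcer1a included, and all were on the array. Below the filter lay 10, at 0.637 to 18.7 in wild type, where the highest was Cpa3, and 0.574 to 18.2 in floxed lungs. These included the granule proteases Mcpt4, Cma1, Tpsb2 and Tpsab1. Mcpt4, a chymase, was at 6.18 and 8.45 against 3.43 and 1.30, and Cma1, another chymase, was at 15.96 and 8.02 against 18.0 and 18.2. These 2 chymases thus differed in opposite directions at low intensity. The 3 tested genes were Kit, Hdc and Gata2, which other lung cells also express. None was called by limma and none had an unadjusted p under 0.05 (log2 differences 0.05, -0.15 and 0.23). Of the basophil list, Gata2 was the 1 gene tested of 6 on the array, and the protease Mcpt8 was at 8.35 and 11.4 against 0.942 and 9.22.

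The IgE receptor passes its signal through the gamma chain Fcer1g, which receptors for IgG share, and through Syk, Lat and Lcp2. Of 8 genes tested in this list none was called by limma, 5 had an unadjusted p under 0.05 and the median was 0.42. Fcer1g was at 369 and 391 in wild type and at 970 and 618 in floxed lungs (log2 difference 1.00 ± 0.21 SE, adjusted p = 0.0869). Both floxed arrays were above the wild type arrays. Fcer1g passed under 4 of 13 alternatives, such as a pseudocount of 64 (adjusted p = 0.0153), and missed the threshold under the others. Without floxed replicate 2 its log2 difference was 1.32. Lat and Lcp2, adaptors also of the T cell receptor, stood at 0.54 and 0.46 (adjusted p = 0.120 and 0.142).

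**Figure D3:**
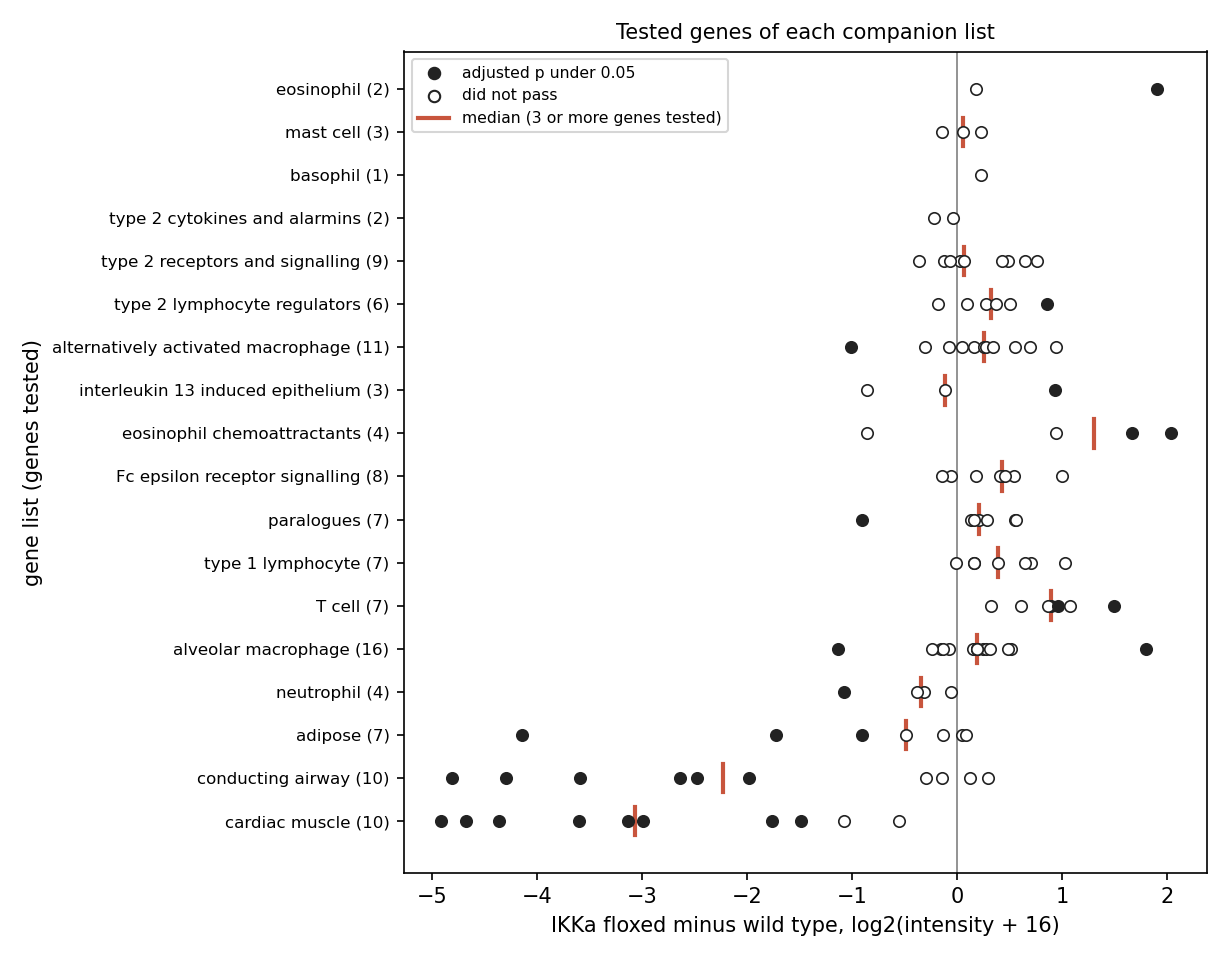
log2 difference (IKKa floxed minus wild type, log2(intensity + 16)) of every tested gene in each of 18 gene lists, with filled points for genes called at an adjusted p under 0.05 and a bar at the median where 3 or more genes were tested. Prg2 at 1.90 is the filled eosinophil gene, no mast cell gene is called, and T cell genes lie above 0 while all cardiac muscle genes lie below 0.

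Gata3, the transcription factor of T helper 2 cells and type 2 innate lymphoid cells, was at 50.8 and 51.8 in wild type and at 59.9 and 71.0 in floxed lungs. Both floxed values were above both wild type values, and the floxed arrays differed from each other by more than the nearer one differed from wild type. The means were 51.3 ± 0.742 and 65.5 ± 7.85 (SD, n = 2 each), and the log2 difference was 0.27 ± 0.13 SE (95% interval -0.03 to 0.58, limma adjusted p = 0.407). It did not pass under any of the 12 alternatives that tested it (lowest adjusted p = 0.274). T cells in general express Gata3, and 7 of 7 tested T cell genes lay above 0 on the same arrays (median 0.89), where 6369 of the 12735 genes tested did. Cd3e and Cd4, below the filter, stood at -0.19 and 0.04 with no filter. The part of the T cell gene difference in the Gata3 values was not tested. Of the 7 tested T cell genes, Cd5, Cd8b1 and Cd3g rose (0.96, 1.49 and 0.89), Cd5 reaching the filter only through the floxed arrays. With no filter none of the 3 was called (adjusted p = 0.0751, 0.112 and 0.153), and Cd8b1 also missed the threshold with a pseudocount of 1 (0.0594). The calls of Cd3g and Cd5 were lost without wild type replicate 2 (adjusted p = 0.165 and 0.0726), and that of Cd3g also without floxed replicate 1 or floxed replicate 2 (0.0988 and 0.0599).

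Among 6 tested regulators and surface genes of type 2 lymphocytes, Gata3 included, 1 rose (median 0.32). Icos, a costimulatory receptor of activated T cells and innate lymphoid cells, went from 39.4 and 34.1 to 79.9 and 78.3 (log2 difference 0.85 ± 0.12 SE, limma adjusted p = 0.0252). The mean of its 3 probe sets gave 0.39 (adjusted p = 0.384), and the call was lost without wild type replicate 2 or floxed replicate 1 (0.121 and 0.0591) and with no filter (0.102). Rora, needed for type 2 innate lymphoid cells, stood at 0.09 with the probe set used, whose groups overlapped. In the limma fit over probe sets its other probe sets stood from -0.38 to -0.10, without a call (adjusted p = 0.337 to 0.823). Rora probe sets below the filter went both ways. Ccr8, Ccr4 and Ptgdr2, receptors of T helper 2 cells, lay below the filter. For comparison, none of 7 tested type 1 lymphocyte genes was called by limma, 4 had an unadjusted p under 0.05, and their median was 0.39. Ifng, the type 1 cytokine, was at 18.2 and 7.18 against 47.8 and 35.3 (1.02 ± 0.21 SE, adjusted p = 0.0789). It reached the filter only through the floxed arrays, and with no filter the adjusted p was 0.217. Its master regulator Tbx21 stood at 0.70 (adjusted p = 0.118) and passed under 1 of the 12 alternatives that tested it. That was the fit without floxed replicate 2, where its log2 difference was 0.92.

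The cytokines that drive these programmes were mostly below the filter. Of 7 cytokines and alarmins, 5 lay below it, at 0.879 to 12.9 in wild type and 0.773 to 23.1 in floxed lungs. Il5 was at 4.96 on floxed replicate 1 and at 1.78 or lower on the other arrays, and Il13 was at 3.07 and 12.9 against 4.03 and 8.74. Il4 was at 2.09 and 1.65 in wild type and at 23.1 and 3.04 in floxed lungs, so that its higher value came from floxed replicate 1 alone. The epithelial alarmin Il33 was at 875 and 965 against 668 and 926 (log2 difference -0.22, limma adjusted p = 0.632), and Tslp stood at -0.04. None of these 2 tested genes was called by limma or had an unadjusted p under 0.05.

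Receptors and signalling genes gave no call in 9 tested, with a median of 0.07, and 5 had an unadjusted p under 0.05 by limma. Csf2rb, the chain shared by the receptors for interleukin 5, interleukin 3 and GM-CSF, was at 231 and 265 in wild type and at 452 and 405 in floxed lungs (log2 difference 0.75 ± 0.13 SE, adjusted p = 0.0501). The groups were well apart, and the gene passed under 4 alternatives, such as quantile normalization (adjusted p = 0.0478). Its other probe set was at 69.8 and 60.3 against 91.4 and 81.5. In the limma fit over probe sets that one stood at 0.34 (adjusted p = 0.408), and the first had an adjusted p of 0.105. Crlf2, a chain of the TSLP receptor, stood at 0.64 and Il7r, its partner, at 0.49 (adjusted p = 0.127 and 0.119). Il4ra, the receptor chain common to interleukins 4 and 13, stood at 0.03, and Stat6 at -0.07. Il13ra1, a receptor chain for interleukin 13, was lower on both floxed arrays, at 295 and 278 against 210 and 229. Its log2 difference was -0.36 (95% interval -0.65 to -0.07, limma adjusted p = 0.246).

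Chemokines that attract eosinophils differed among themselves. Of 4 tested, 2 rose and none fell, and with no filter 1, Ccl3, was called. Ccl3, a chemokine made by macrophages among other cells, went from 3.57 and 2.81 to 51.2 and 38.8 (log2 difference 1.66 ± 0.14 SE, limma adjusted p = 0.00378), and like Prg2 it reached the filter only through the floxed arrays. Ccl5, which also attracts T cells and monocytes, went from 185 and 163 to 1102 and 524 (2.03 ± 0.31 SE, adjusted p = 0.0320, but 0.1004 with a pseudocount of 1, 0.132 with no filter, 0.0571 in the fit over probe sets and 0.0768 where the prior followed intensity and was robust). Ccl11, eotaxin 1 and the ligand of Ccr3, was at 51.6 and 47.5 against 11.6 and 31.1 (-0.86, adjusted p = 0.171). Ccl24, eotaxin 2, lay below the filter at 4.16 and 3.05 against 1.52 and 1.4995. Both eotaxins were thus lower on the floxed arrays, without a call, Ccl24 at low intensity. The other genes of this list, Ccl8 and Ccl7, were higher on both floxed arrays, also without a call. Ccl8 was at 167 and 161 against 491 and 218 (log2 difference 0.94, limma adjusted p = 0.260). Ccl7, below the filter, was at 12.3 and 11.7 against 23.6 and 17.3.

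Epithelial genes that interleukin 13 is known to induce were mostly below the filter, 8 of 11. Clca1 and Muc5ac, products of goblet cells, lay between 1.96 and 13.1 on all arrays with the probe sets used. Both were lower on the floxed arrays with these probe sets. The other probe set of Clca1 overlapped between groups, at 1.14 and 10.3 against 9.22 and 1.05. With no filter 2 of the 11 genes lay above 0, where with the filter 6369 of all 12735 genes tested did. Of 3 tested, 1 rose, and the other genes, Postn and Ccl11, lay below 0 without a call (Ccl11 at -0.86). Slc26a4, the anion exchanger pendrin, went from 13.1 and 13.1 to 43.3 and 35.9 (log2 difference 0.93 ± 0.13 SE, limma adjusted p = 0.0210), and its call was lost without wild type replicate 1, wild type replicate 2 or floxed replicate 1 (adjusted p = 0.0547, 0.0726 and 0.0515). It too reached the filter through the floxed arrays, and with no filter it was not called (0.0904). Postn, the matrix protein periostin, stood at -0.12. Among 4 tested neutrophil genes 1 fell, Ltf (-1.08, adjusted p = 0.0467), which airway glands also make, and its call was lost without wild type replicate 1, floxed replicate 1 or floxed replicate 2 (0.0868, 0.0815 and 0.0951) and with no filter (0.156).

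**Figure D4:**
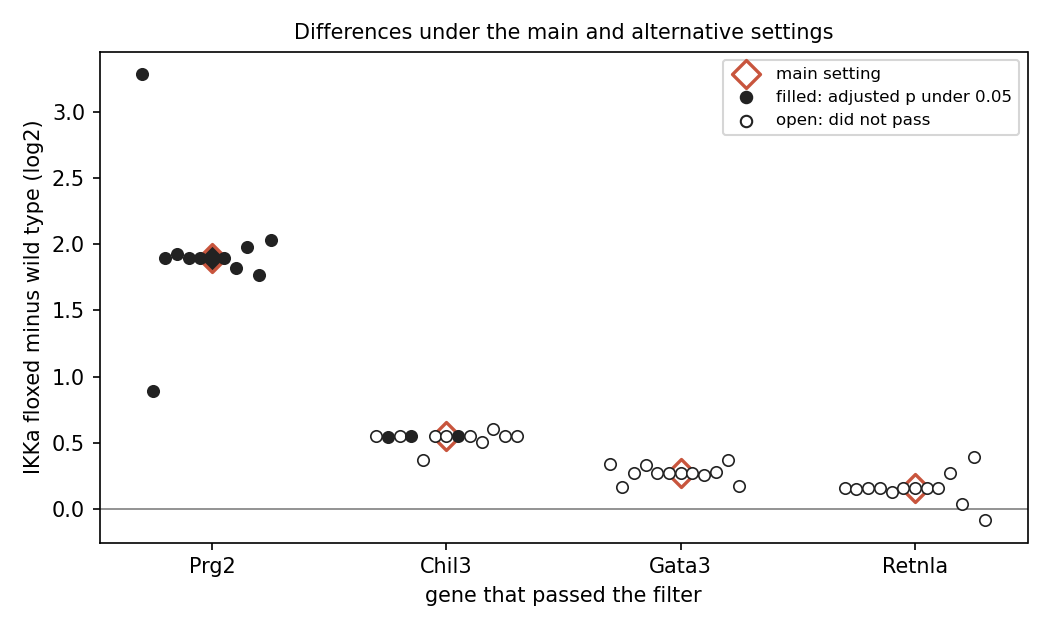
log2 difference (IKKa floxed minus wild type) of the 4 genes that passed the filter, with a diamond for the main setting and a circle for each alternative that tested the gene (12 for Prg2 and Gata3, 13 for Chil3 and Retnla), filled where the adjusted p was under 0.05. Prg2 runs from 0.89 to 3.29 and is filled throughout, Chil3 is filled in 3 alternatives, and Retnla crosses 0.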

How the data were processed

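Total RNA of 4 lungs was hybridised to 1 Affymetrix array each, and groups and replicate numbers came from the sample titles. The authors deposited 1 linear intensity per probe set. Affymetrix Expression Console is named in the submitters' processing notes, while the algorithm and the background correction were not given in the sources used here. Scaling was read from the values. Gene names came from the platform annotation. Of 45101, 64 were controls, 34945 had 1 symbol, 932 had several and 9160 were not listed. No member symbol changed against RefSeq (GRCm38.p6). For each of 18193 genes the probe set with the highest mean was kept, genes below the 30th percentile were left out, and log2(intensity + 16) was tested with lmFit and eBayes of limma 3.58.1 (R 4.3.3; two-sided, 2 residual degrees of freedom, Benjamini-Hochberg adjustment). A second fit took each probe set singly. Fold changes on this scale understate those of low genes. An exact permutation test of 2 against 2 arrays cannot go below p = 0.333 and was not used. The code was tested on simulated data. The members and the 18 gene lists were chosen with earlier results of these data known, so list counts and medians are descriptions, over genes that passed the filter. The rule for named genes took all members and, in each list, the called genes or up to 3 with the largest moderated t. Other list genes were named after their values were seen. Alternatives were pseudocounts of 1 and 64, no filter or the 50th percentile, quantile normalization, the mean of probe sets, the probe set fit, an intensity trend with robust prior, a replicate block and leaving out each array.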

Additional observations from a re-analysis of the deposited data

How the results depend on the processing

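The number of genes called, 225 with the settings above, was 110 with a pseudocount of 1, 362 with a pseudocount of 64, 69 with no filter and 388 with an intensity trend plus a robust prior, and it ranged from 145 to 251 when 1 array was left out. The cause was not tested. The number of members called was 1, and 2 with a pseudocount of 64 or an intensity trend and robust prior, where Chil3 joined Prg2. It was 1 whichever array was left out. With the filter at the 50th percentile it was also 1, but there Prg2 was not tested and Chil3 was the gene called. Prg2 passed under all 12 alternatives that tested it (adjusted p = 5.68e-04 to 0.0287). Among the called genes that the naming rule took, 29 in all, 11 passed in every alternative that tested them and 18 missed the threshold in at least 1, 16 of them with no filter, and none reversed. The deviations of same-numbered arrays correlated at 0.002 across genes. This cannot exclude that replicate numbers pair the arrays, as each group gave only 1 difference between arrays. With a replicate block 198 genes were called and 1 member, Prg2. The 2 arrays per group limit the precision of every value.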
